A study of Mus musculus with 9 samples.

Results

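The kappa light chain of mouse antibodies is encoded at a locus on chromosome 6 by 1 constant gene, Igkc, and 5 short joining segments, Igkj1 to Igkj5. These 6 genes are described here across plasma cells of 3 genotypes. They were taken by exact symbol from a table of 46958 genes, and all 6 were found in it. All 6 also passed the filter on low counts that left 14199 genes for testing. The joining segments passed through their counts in DH-LMP2A and WT.

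RNA was sequenced from splenic CD138+ plasma cells of non-immunized mice at 3 months of age. Each library held the plasma cells of 1 spleen, isolated with beads to a stated purity above 80%, and all mice had a mixed C57/BL6x129/SVxBALB/c background. The groups were WT, DH-LMP2A and kFRA (LCDD), with 3 mice each, where LCDD stands for light chain deposition disease. The labels do not describe the alleles, and do not say whether the kFRA mice also carried the DH-LMP2A allele. As background on the published lines, DH-LMP2A places the viral receptor mimic LMP2A in the heavy-chain locus, so that B cells mature without a heavy chain. The published kFRA design places a human kappa variable exon from a patient with LCDD at the mouse joining segments, and this exon is spliced to mouse Igkc. Reads from an inserted human exon were not analysed here.

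A developing B cell cuts and rejoins its DNA so that 1 variable segment (Igkv) is fused to 1 joining segment. The fused exon is transcribed together with Igkc, and splicing removes what lies between them. Igkc encodes the part of the light chain that is the same in every kappa antibody, and the joining segment encodes the last residues of the variable domain. The third segment, Igkj3, is regarded as nonfunctional in mice. Plasma cells secrete antibody and hold very large amounts of these transcripts.

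The joining segments lie upstream of Igkc on the plus strand (GRCm38). Igkj1 spans chr6:70722562-70722599, Igkj2 chr6:70722916-70722958, Igkj3 chr6:70723223-70723260, Igkj4 chr6:70723548-70723585 and Igkj5 chr6:70723886-70723927. Igkc is a single exon at chr6:70726435-70726966, of which 320 bases are coding and 212 lie beyond the coding part. These positions are those of the deposited table and equal those of GENCODE M21. No exon of another gene overlapped any of the 6, in GENCODE M21 or in the table. The segments are shown because their length and likeness decide how reads can be assigned to them. Each is read 5′ to 3′ from GENCODE M21, and the capitals mark the place of the motif TTCGGNNNNGG, which holds the phenylalanine and glycine codons conserved in joining regions. The motif was found in 4 of the 5 segments, all but Igkj3, on the strand as read. It occurred in 0.153% of the first 38 bases of all transcripts, and in 0.257% with both strands searched. Igkj3 matches only TTCNGNNNNGG, a pattern loosened after its sequence had been seen, and its capitals mark that match.
Igkj1: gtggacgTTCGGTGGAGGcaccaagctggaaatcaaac
Igkj2: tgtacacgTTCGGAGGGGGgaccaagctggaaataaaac
Igkj3: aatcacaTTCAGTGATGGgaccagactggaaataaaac
Igkj4: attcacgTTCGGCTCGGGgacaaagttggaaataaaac
Igkj5: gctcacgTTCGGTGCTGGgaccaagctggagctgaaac

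Counted from the 5′ end of the segment, Igkj3 carries the change G11A against Igkj1, in the first of the conserved glycine codons. Aligned at their 3′ ends over 38 bases, pairs that include Igkj3 shared 26 to 28 bases, and pairs among the other segments shared 27 to 32. The longest run shared by any pair was 14 bases. In the table Igkj2 and Igkj5 each extend 4 bases (GTAA) past the coding segment, into the intron. The first 75 bases of Igkc, the length of 1 sequencing read, are given because every spliced kappa transcript continues from its joining segment into them.
Igkc: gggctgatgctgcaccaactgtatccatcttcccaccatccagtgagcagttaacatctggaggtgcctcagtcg

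None of the 458 windows of 75 bases in Igkc, and none of the complete joining segments, occurred in a transcript of another gene among 141767 GENCODE M21 transcripts. A read of 75 bases is longer than any joining segment, so a read over a segment also covers variable, intron or Igkc sequence. Whether the authors counted fragments that overlap exons of more than 1 gene is not given in the sources used here. The joining counts are therefore compared between libraries counted in the same way, and are not numbers of kappa transcripts.

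Total counts ranged from 15449026 to 21558128 per library. Levels are given as CPM, counts per 1000000 counts of the library, scaled with edgeR's TMM factors (trimmed mean of M-values), and 3 counts are taken as the floor of detection. Markers of plasma cells were present in every genotype, the summed level of 8 genes lying between 18890 and 47160 CPM. Of these 8, Mzb1 and Slamf7 passed as higher in kFRA than in WT and Tnfrsf17 as lower. In DH-LMP2A against WT, Mzb1, Slamf7 and Prdm1 passed as higher and Tnfrsf17 as lower, and none passed in edgeR in kFRA against DH-LMP2A (0 higher and 2 lower at an unadjusted p under 0.05). The 8 B cell markers, whose cells also transcribe Igkc, summed to 540.5 to 634.7 CPM in kFRA, 731.6 to 1104 in DH-LMP2A and 630.8 to 916.1 in WT. In kFRA against DH-LMP2A, 2 of the 8 B cell, 1 of 8 T cell and 2 of 8 myeloid markers passed as lower, where 3.3% of all genes tested did. In kFRA against WT, 4 of 8 B cell and 4 of 8 myeloid markers passed as lower (11.1% of all genes), and 5 of 7 erythroid markers tested as higher (6.68% of all genes). In DH-LMP2A against WT, 2 B cell, 1 T cell and 5 erythroid markers passed as higher (5.07% of all genes), and 1 B cell and 1 myeloid marker as lower (7.3% of all genes). The heavy-chain constant genes summed to 226997 to 348544 CPM in WT, and to 7272 to 10823 CPM over the libraries of both other genotypes. The 8 T cell markers summed to 78.6 to 156.1 CPM over the libraries, the 8 myeloid markers to 643.8 to 4012, and the 7 erythroid markers found to 39.2 to 13637. Most of the T cell sum came from Cd28, at genotype means of 47.2 to 73.0 CPM, and Cd4, at 22.4 to 44.8. The T cell receptor gene Cd3e averaged 1.69 to 2.61 CPM, and each of the others at most 9.34. In both comparisons above in which a T cell marker passed, it was Cd28. No marker gene found was at 0 in all libraries of a genotype, and the part of other cells in the results was not tested. In a bulk sample, fewer cells of a type and less RNA per cell cannot be told apart.

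Igkc was the member with the highest counts, and its libraries were highest in kFRA. In kFRA it was at 431979, 216028 and 472266 CPM in replicates 1 to 3. In DH-LMP2A it was at 112731, 114477 and 153369 CPM. In WT it was at 98077, 116659 and 161780 CPM. All 3 kFRA libraries thus lay above all 6 others, with replicate 2 at the bottom of the kFRA range, while the DH-LMP2A and WT libraries overlapped. Of all genes tested, 25.6% had no overlap between kFRA and DH-LMP2A, with kFRA above for 11.6% and below for 13.9%. Between kFRA and WT this share was 34.3%, with kFRA above for 14.2% and below for 20.2%. Between DH-LMP2A and WT it was 36.6%, with DH-LMP2A above for 17.5% and below for 19.1%.

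The difference in Igkc did not pass the test across all genes. By edgeR's quasi-likelihood test with Benjamini-Hochberg adjustment, the log2 fold change of kFRA against DH-LMP2A was 1.56 (SE 0.52, 95% interval 0.39 to 2.72, adjusted p = 0.128). Against WT it was 1.57 (SE 0.52, 95% interval 0.41 to 2.74, edgeR adjusted p = 0.0643). For comparison, 5.02% of all genes tested passed in kFRA against DH-LMP2A, 1.73% as higher. In kFRA against WT 17.8% passed, 6.68% as higher. Without kFRA replicate 2 the log2 fold change against WT was 1.91 and passed (edgeR adjusted p = 0.034). With libraries scaled by size alone Igkc passed in both comparisons, at 1.37 against DH-LMP2A and 1.74 against WT. Between DH-LMP2A and WT the log2 fold change was 0.02 (SE 0.51, edgeR adjusted p = 0.99), with a 95% interval from −1.12 to 1.15 that leaves room for differences of more than 2-fold in either direction.

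**Figure D1:**
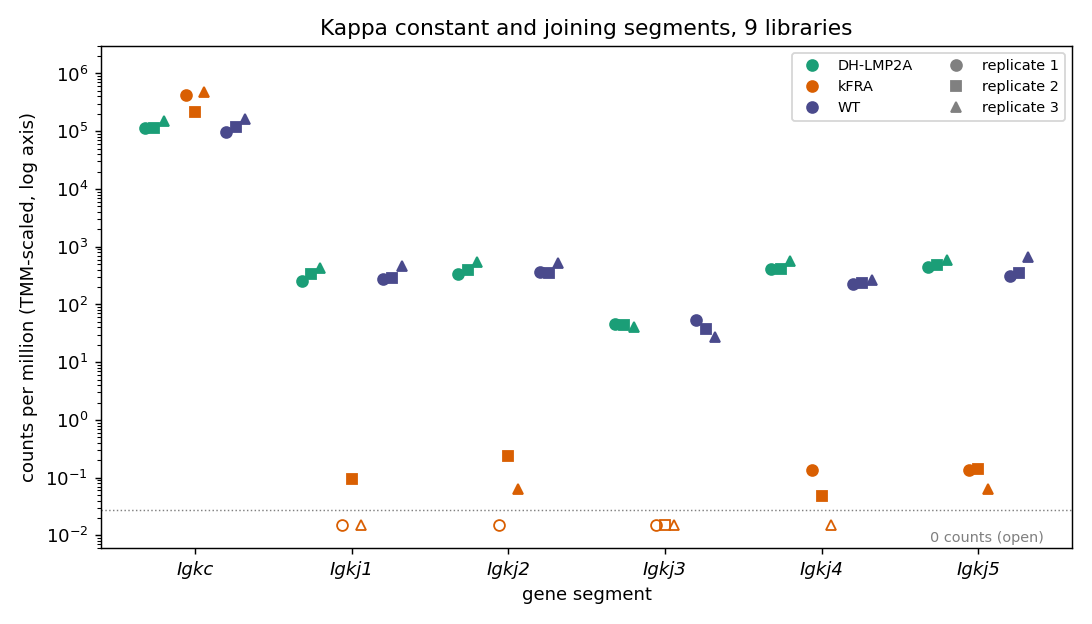
TMM-scaled CPM on a log axis for Igkc and the 5 joining segments, with 1 point per library coloured by genotype and shaped by replicate. Open points below the dotted line had 0 counts. The kFRA points are the highest for Igkc and lie below 0.25 for every joining segment, where the DH-LMP2A and WT points lie above 27.

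The joining segments went the other way. In kFRA, Igkj1 had 0, 2 and 0 counts in replicates 1 to 3, and Igkj2 had 0, 5 and 1. Igkj3 had no count in any kFRA library. Igkj4 had 2, 1 and 0 counts, and Igkj5 had 2, 3 and 1. Replicate 2 held 11 of the 17 joining counts of this genotype. Apart from Igkj2 and Igkj5 in replicate 2, every kFRA value lay under the floor of 3 counts.

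In DH-LMP2A and WT the same segments were counted in every library, from 433 counts of Igkj3 in WT replicate 3 to 13122 of Igkj5 in DH-LMP2A replicate 3. Igkj1 was at 259.1, 334.8 and 426.4 CPM in DH-LMP2A and at 270.6, 288.1 and 464.1 CPM in WT. Igkj2 was at 339.9, 398.9 and 541.8 CPM in DH-LMP2A and at 368.5, 356.6 and 531.2 CPM in WT. For both segments the libraries of these genotypes overlapped. Igkj3, the nonfunctional segment, was at 45.7, 43.3 and 40.5 CPM in DH-LMP2A and at 53.9, 37.3 and 27.6 CPM in WT, again with overlap. Igkj4 was at 407.5, 413.1 and 573.3 CPM in DH-LMP2A and at 224.5, 235.6 and 270.0 CPM in WT, so that all DH-LMP2A libraries were above all WT libraries. Igkj5 was at 444.5, 476.7 and 600.5 CPM in DH-LMP2A and at 315.2, 354.3 and 673.0 CPM in WT. The highest Igkj5 library was WT replicate 3, and the groups overlapped.

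All 5 joining segments passed as lower in kFRA than in DH-LMP2A, and all 5 as lower than in WT. They had passed the filter through their counts in DH-LMP2A and WT, so their number carries no information on the direction. The edgeR adjusted p-values ranged from 2.15e-07 for Igkj4 to 9.99e-06 for Igkj3 against DH-LMP2A, and from 3.41e-07 to 7.45e-06 against WT. Over all genes tested, 3.3% passed as lower in the first comparison and 11.1% in the second. Both comparisons use the same kFRA libraries. Fitted fold changes depend here on the prior count and are not given. With counts pooled over the 3 libraries and set against Igkc, Igkj5 was 12246-fold higher in DH-LMP2A than in kFRA (95% interval 5625 to 33371, for counting error only). Igkj3, with no kFRA count, was at least 2095-fold higher in DH-LMP2A and at least 2020-fold higher in WT, against a floor of 3 counts over the group.

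The joining-to-constant ratio, the counts of all 5 joining segments over those of Igkc in the same library, needs no scaling between libraries. In DH-LMP2A there were 1.33, 1.46 and 1.42 joining counts per 100 Igkc counts, a mean of 1.40 ± 0.067 (SD, n = 3). In WT there were 1.26, 1.09 and 1.22, a mean of 1.19 ± 0.087 (SD, n = 3). In kFRA there were 0.633, 2.42 and 0.266 joining counts per 1000000 Igkc counts. On that scale their exact Poisson 95% intervals were 0.173 to 1.62, 1.21 to 4.33 and 0.032 to 0.96, and the lowest library of the other genotypes, WT replicate 2, was at 10903. The kFRA libraries thus lay far below all others, and the DH-LMP2A libraries lay above the WT libraries. The segments did not share equally in the difference between DH-LMP2A and WT. Pooled over libraries, Igkj4 had 3662 counts per 1000000 Igkc counts in DH-LMP2A and 1965 in WT. On that scale Igkj5 was at 3996 and 3509, Igkj2 at 3356 and 3342, Igkj1 at 2671 and 2702, and Igkj3 at 342 and 330. A ratio without Igkj4 was not tested.

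Pooled over libraries, the ratio was 15170 times higher in DH-LMP2A than in kFRA (95% interval 9474 to 26042) and 12814 times higher in WT than in kFRA (95% interval 8003 to 21999), for counting error only. On the log2 scale, with 0.5 added to the joining counts, kFRA was lower by a difference of −14.02 against DH-LMP2A and −13.78 against WT. Without kFRA replicate 2 these differences were −14.81 and −14.57, and without kFRA replicate 3 they were −13.35 and −13.11. DH-LMP2A exceeded WT by 0.24 on this scale. The exact permutation test, 2-sided, gave p = 0.1 for each of these 3 differences, the smallest value that 3 against 3 libraries allow. Of 21 such tests on ratios and shares none could therefore pass a threshold of 0.05, and after Benjamini-Hochberg adjustment a p of 0.1 became 0.14.

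**Figure D2:**
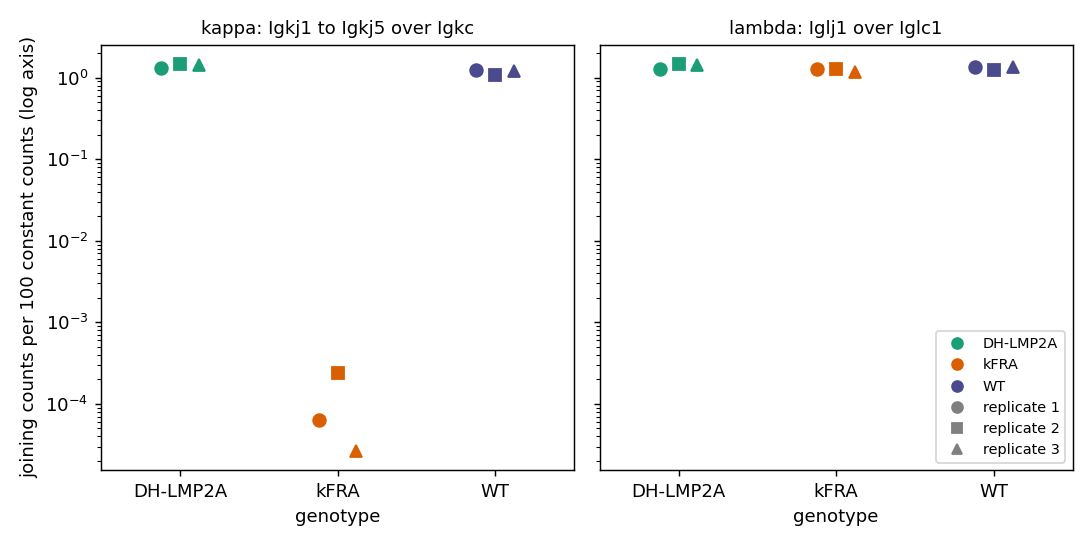
Joining counts per 100 constant-gene counts on a log axis, with 1 point per library: the kappa segments over Igkc on the left, and the lambda pair Iglj1 over Iglc1 on the right. The kappa points of kFRA lie under 0.001, and the lambda points of all 9 libraries lie between 1.16 and 1.48.

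The lambda light chain has its own joining and constant genes, and the pair Iglj1 and Iglc1 was read in the same libraries. This ratio was added after the kappa values had been seen. Iglj1 had 2344, 1958 and 2461 counts in kFRA, and its counts per 100 Iglc1 counts were 1.30, 1.30 and 1.16. The kFRA mean was 1.25 ± 0.078, that of DH-LMP2A 1.40 ± 0.105 and that of WT 1.32 ± 0.063 (SD, n = 3 each). The libraries of the 3 genotypes overlapped, and kFRA was lower than DH-LMP2A by a log2 difference of −0.16 (exact permutation test, 2-sided, p = 0.3). In kFRA the lambda joining segment was thus counted at a share of its constant gene where the kappa segments were not.

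The variable segments of the kappa locus moved with the joining segments. Summed over 158 Igkv genes, DH-LMP2A libraries held 64.5, 61.4 and 63.2 variable counts per 100 Igkc counts, and WT libraries 66.1, 67.1 and 66.3. In kFRA there were 47.5, 197.3 and 47.0 variable counts per 1000000 Igkc counts. The log2 difference of kFRA was −13.01 against DH-LMP2A and −13.09 against WT (exact permutation test, p = 0.1 each), and −13.70 and −13.78 without kFRA replicate 2. Replicate 2 was the highest kFRA library for variable as for joining counts, with 896 and 11 counts, and the lowest for Igkc. Igkv3-1, the variable segment nearest to Igkj1, had 145 counts there and 16 and 23 in replicates 1 and 3. Joining counts were also set against variable counts, a ratio added after these values had been seen. Joining counts per 100 variable counts were 1.33, 1.23 and 0.565 in kFRA, 2.06, 2.37 and 2.25 in DH-LMP2A, and 1.90, 1.62 and 1.83 in WT. The log2 difference of kFRA was −1.005 against DH-LMP2A and −0.69 against WT (exact permutation test, p = 0.1 each), with no overlap. The kFRA values rest on 4, 11 and 2 joining counts.

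The share of each joining segment was compared between DH-LMP2A and WT, since kFRA libraries held at most 11 joining counts. Igkj4 took 27.2%, 24.8% and 26.3% of the joining counts in DH-LMP2A, a mean of 26.1% ± 1.23 (SD, n = 3). In WT it took 18.2%, 18.5% and 13.7%, a mean of 16.8% ± 2.68 (SD, n = 3). The libraries did not overlap. Igkj1 took less in DH-LMP2A than in WT, at 19.0% ± 1.47 against 22.7% ± 0.83 (SD, n = 3 each), and so did Igkj2, at 23.8% ± 1.06 against 28.3% ± 1.46 (SD, n = 3 each), both without overlap. For Igkj4, Igkj1 and Igkj2 the exact permutation test, 2-sided, gave p = 0.1. Shares add up to a fixed total, so these differences are not independent of each other. Set against Igkc, as given above, Igkj1 and Igkj2 were nearly equal in DH-LMP2A and WT.

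The other segments overlapped between these genotypes. Igkj5 took 28.6% ± 1.09 in DH-LMP2A and 29.2% ± 4.49 in WT (SD, n = 3 each; exact permutation test, p = 0.9), with 34.2% in WT replicate 3. Igkj3 had the lowest share in each of the 6 libraries, at 2.50% ± 0.60 in DH-LMP2A and 2.90% ± 1.49 in WT (SD, n = 3 each; exact permutation test, p = 0.8). Its WT values spread from 1.40% in replicate 3 to 4.38% in replicate 1.

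**Figure D3:**
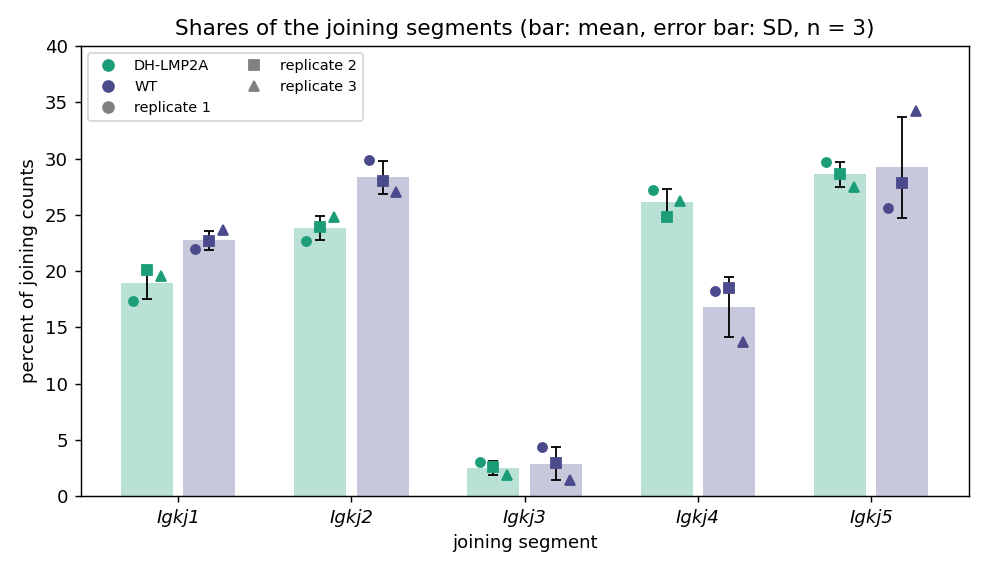
Percent of the joining counts of a library taken by each segment in DH-LMP2A and WT, with bars for the mean, error bars for the SD (n = 3) and 1 point per library. The Igkj4 points of DH-LMP2A (24.8 to 27.2) lie above those of WT (13.7 to 18.5), and Igkj3 stays below 5 in every library.

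Igkj4 was also the 1 segment of 5 that passed between DH-LMP2A and WT in the fit across all genes. It was higher in DH-LMP2A, at 0.93 on the log2 scale with a 95% interval of 0.42 to 1.44 (SE 0.23, edgeR adjusted p = 0.0269). Of all genes tested, 12.4% passed in this comparison, 5.07% as higher and 7.3% as lower. Across 14 other settings the edgeR or DESeq2 adjusted p ranged from 8.00e-05 to 0.0968. It did not pass without DH-LMP2A replicate 1 (log2 fold change 1.01, adjusted p = 0.0602), DH-LMP2A replicate 3 (0.76, 0.0771), WT replicate 1 (0.88, 0.0853) or WT replicate 2 (0.91, 0.0968). For Igkj1, Igkj2, Igkj3 and Igkj5 the log2 fold changes were −0.00, 0.03, 0.12 and 0.18, with SEs between 0.23 and 0.30 and edgeR adjusted p-values from 0.757 to 0.996. Set against Igkc, Igkj4 had 0.362, 0.361 and 0.374 counts per 100 Igkc counts in DH-LMP2A and 0.229, 0.202 and 0.167 in WT. This ratio was added after the shares had been seen.

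Levels of different segments are listed per kilobase of the table's length, for description only. A read is longer than a joining segment, so these values show how the segments were counted. They are not relative amounts of transcript. In DH-LMP2A, Igkj4 lay between 10725 and 15087 CPM per kilobase over the 3 libraries, Igkj5 between 10583 and 14298, Igkj2 between 7904 and 12600, and Igkj1 between 6818 and 11222. These 4 ranges overlapped, and Igkj3 lay below them at 1067 to 1203. In WT, Igkj2 lay between 8293 and 12354 CPM per kilobase, Igkj5 between 7504 and 16023, and Igkj1 between 7120 and 12213. Igkj4 came next at 5907 to 7106, just under the lowest library of the others, and Igkj3 was lowest at 726 to 1419. As counted, Igkc lay above every joining segment. It was at 184355 to 304097 CPM per kilobase in WT, at 211901 to 288288 in DH-LMP2A and at 406067 to 887718 in kFRA. Its exon is longer than a read, so its distance from the joining segments does not compare amounts of transcript.

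Kappa and lambda chains share the light-chain pool. The share of Igkc in the constant-gene counts of both light chains averaged 84.2% ± 1.21 for DH-LMP2A, 95.8% ± 0.89 for WT and 96.5% ± 0.37 for kFRA (SD, n = 3 each). The DH-LMP2A libraries, at 83.0%, 84.2% and 85.4%, lay below all others (exact permutation test, 2-sided, p = 0.1 against each). The kFRA libraries, at 96.0% to 96.7%, overlapped those of WT, at 95.1% to 96.8% (exact permutation test, p = 0.4). Against Iglc1 alone the kFRA share was lower than that of WT, by a difference of −0.70 percentage points. The order of these genotypes thus depends on whether the other lambda constant genes are counted. Iglc1 itself was at 10939 ± 3289 CPM in kFRA against 2708 ± 322 in WT and 21547 ± 2073 in DH-LMP2A (SD, n = 3 each). Of 12 genes of the lambda light chain 10 were tested. In kFRA against DH-LMP2A 2 passed as lower, Iglj1 and Iglv1, where 3.3% of all genes did. In kFRA against WT 3 passed as higher, Iglc1, Iglj1 and Iglv1 (6.68% of all genes), and 2 as lower, Iglv2 and Iglv3 (11.1% of all genes). In DH-LMP2A against WT, Iglc1, Iglj1 and Iglv1 passed as higher (5.07% of all genes) and Iglv2 as lower (7.3% of all genes).

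A long noncoding RNA, listed as Gm43291 (chr6:70719074-70740554, plus strand; Gm30211 in GENCODE M21), spans the joining segments and Igkc without sharing an exon with them. The first of its 4 exons ends 3185 bases before Igkj1, and the second starts 2869 bases after Igkc. It was chosen as 1 of 12 genes other than the members that lie within 200000 bases of Igkc and passed the filter. In DH-LMP2A it was at 261.9, 295.3 and 334.8 CPM. The kFRA libraries had 71.0, 47.0 and 73.5 CPM, and the WT libraries 105.0, 103.4 and 106.5 CPM. The libraries of the 3 genotypes did not overlap. On the log2 scale kFRA was at −2.22 relative to DH-LMP2A (SE 0.19), and DH-LMP2A was at 1.502 relative to WT (SE 0.18). The edgeR adjusted p-values were 8.75e-05 and 0.000952.

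Relative to WT, the log2 difference of Gm43291 in kFRA was −0.72 (SE 0.18), which passed in edgeR (adjusted p = 0.0259). This call did not pass without kFRA replicate 1 (−0.80, edgeR adjusted p = 0.0576), WT replicate 1 (−0.72, 0.0633), WT replicate 2 (−0.73, 0.0751) or WT replicate 3 (−0.71, 0.0563). In a fit of only the 6 libraries compared it did not pass either (−0.66, 0.0659), and without kFRA replicate 2 it passed at −0.47. Gm43291 was thus at 47.0 CPM or more in kFRA libraries in which no joining segment exceeded 0.24 CPM. Of the other genes near Igkc, 9 were Igkv segments, which averaged 0.0387 CPM (Igkv3-3) to 3.15 CPM (Igkv3-1) in kFRA. They passed the filter through their counts in DH-LMP2A and WT, and Igkv3-6 and Igkv3-8 did not pass it, so their number carries no information on the direction. Rpia, a pentose phosphate enzyme gene 38754 bases beyond Igkc, was higher in kFRA than in WT by 0.92 (SE 0.18, edgeR adjusted p = 0.00751). Eif2ak3, which encodes the stress kinase PERK, passed in none of the 3 comparisons, with edgeR adjusted p-values of 0.0562 to 0.982.

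**Figure D4:**
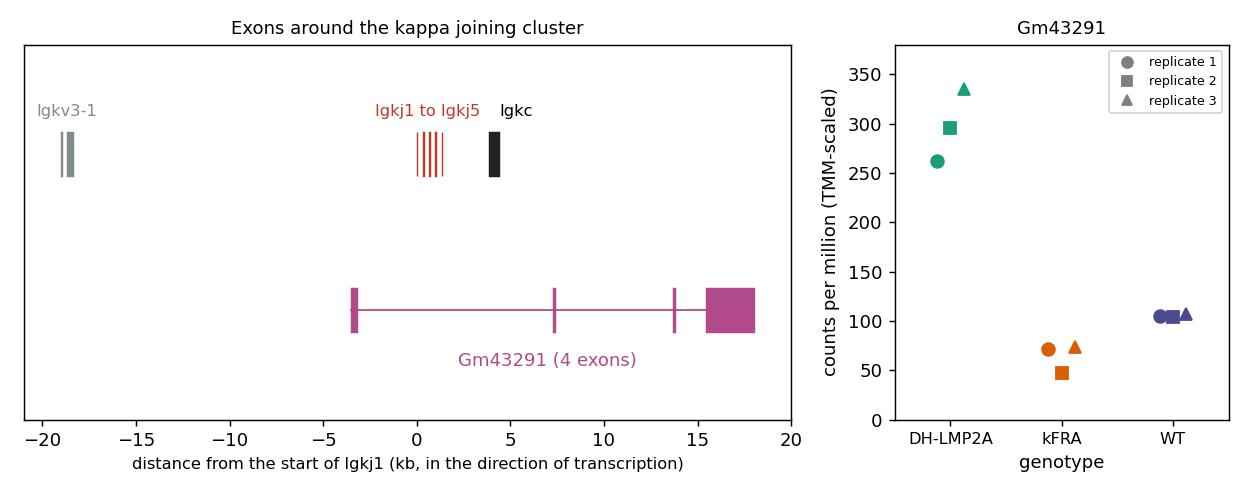
Left, exons around the kappa joining segments drawn to scale against the distance from the start of Igkj1 in kilobases, with the 5 joining segments, Igkc, the nearest variable segment Igkv3-1 and the 4 exons of Gm43291. Right, Gm43291 in TMM-scaled CPM with 1 point per library, highest in DH-LMP2A (261.9 to 334.8) and lowest in kFRA (47.0 to 73.5).

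Genes that serve the kappa locus were read from lists. Of 14 genes of the recombination machinery, 11 were tested. In kFRA against DH-LMP2A none passed as higher and 1 as lower, Hmgb2, a chromatin protein that assists the recombinase (−0.72 in log2, SE 0.17, edgeR adjusted p = 0.0403). In kFRA against WT 1 passed as higher, the DNA polymerase gene Poll (0.67, SE 0.18, edgeR adjusted p = 0.0333), and 1 as lower, the ligase gene Lig4 (−0.86, SE 0.23, edgeR adjusted p = 0.0334). Over all genes tested, 3.3% passed as lower in the first of these comparisons, and 6.68% as higher and 11.1% as lower in the second, so these counts are near those shares. In DH-LMP2A against WT none passed in edgeR, and 2 were higher and 0 lower at an unadjusted p under 0.05. The median log2 fold changes of the list were −0.08, 0.06 and 0.12 in these comparisons, against −0.00, −0.04 and −0.01 over all genes tested. Vpreb3, the 1 of 4 surrogate light chain genes tested, was lower in kFRA than in DH-LMP2A (log2 difference −1.25, edgeR adjusted p = 0.0257). Rag1, which encodes a subunit of the recombinase, was not tested. It had no count in any kFRA library, 1, 3 and 10 counts in DH-LMP2A and 5, 16 and 11 counts in WT.

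The 19 transcription factors known to act at the kappa promoters and enhancers were all tested. In kFRA against DH-LMP2A, 1 of 19 passed as lower and none as higher, where 3.3% of all genes passed as lower. At an unadjusted edgeR p under 0.05, 9 of the 19 were lower and 0 higher. Of all 14199 genes tested, 3183 reached that p in either direction. The factor that passed was Pou2af1, a coactivator of octamer-binding factors. It averaged 595.0 ± 63.5 CPM in kFRA and 925.1 ± 39.3 CPM in DH-LMP2A (SD, n = 3 each). Its log2 difference was −0.64 with an SE of 0.15, and its adjusted p from edgeR was 0.0461. In kFRA against WT, 5 passed as lower, namely Irf8, Spi1, Spib, Pax5 and Ebf1, and none as higher, where 11.1% of all genes passed as lower. In DH-LMP2A against WT, 3 passed as lower and 1 as higher, against 7.3% and 5.07% of all genes. Irf8 and Spi1, which act together at the kappa enhancer, were lower in DH-LMP2A than in WT too, as was the octamer factor gene Pou2f2. The insulator gene Ctcf was higher in DH-LMP2A than in WT, by 0.43 with an SE of 0.12 (adjusted p = 0.0476 by edgeR). Pax5 is also 1 of the 8 B cell markers, 4 of which passed as lower in kFRA than in WT, and Irf8 and Spi1 are expressed in myeloid cells, 4 of whose 8 markers passed as lower there. The part of these cells was not tested. At an unadjusted edgeR p under 0.05, 8 of the 19 were lower and 0 higher in kFRA against WT. In DH-LMP2A against WT, 6 were lower and 4 higher. Over all genes tested, 4964 and 3778 reached that p in either direction. The median log2 fold changes of the list were −0.42, −0.28 and −0.04, against −0.00, −0.04 and −0.01 over all genes tested. Irf4, the plasma cell regulator that binds the kappa enhancer, was at 804.5 ± 190.2 CPM in kFRA, at 854.2 ± 112.1 in DH-LMP2A and at 596.7 ± 221.6 in WT (SD, n = 3 each), and passed in no comparison.

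The genes most like the members in their pattern were found by the root mean square difference of log2 CPM, each gene centred on its own mean over the 9 libraries, among 9848 genes at a mean of at least 5 CPM. For Igkc these were Gm11478 (0.19), Glo1 (0.25), Abhd2 (0.26), Gm11423 (0.27) and H2-T10 (0.30), where Igkc itself varied by 0.80 about its mean. Gm11478 averaged 54.1 CPM in kFRA, against 16.8 in DH-LMP2A and 15.2 in WT. For the summed joining counts they were 5 Igkv segments, Igkv1-135 (0.42), Igkv4-57-1 (0.42), Igkv3-12 (0.43), Igkv4-59 (0.47) and Igkv12-47 (0.53), where the joining counts varied by 5.69 about their mean. Igkv1-135 averaged 2330 CPM in DH-LMP2A, 1810 in WT and 0.366 in kFRA.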

How the data were processed

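Messenger RNA was sequenced with a stranded kit as paired reads of 75 bases, per the labels' protocols. Reads were aligned with STAR 2.4.0a and counted with featureCounts of Subread 1.5.0-p3 on mm10 (GRCm38), per the submitters' processing notes. The authors deposited raw counts per gene. The strand setting and the treatment of reads with several places or several genes are not given in the sources used here. Nothing says that the replicates, 1 mouse each, differ in batch.

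The tests used edgeR 4.0.16 in R 4.3.3, on counts with filterByExpr, TMM, a quasi-likelihood fit with 1 coefficient per genotype over 9 libraries, 2-sided F tests, and Benjamini-Hochberg adjustment over 14199 genes at 0.05. SE is the log2 fold change over the square root of F. Ratios and shares were compared by exact permutation tests (scipy 1.17.1). Intervals and floors cover counting error only. The scripts were tested on simulated data. Replicates of a genotype differed beyond sampling noise (chi-square per degree of freedom of at least 18.8). The members, gene lists, neighbours and likeness rule were chosen with earlier results of these data known. The genes named are the members, all tested genes within 200000 bases of Igkc, and list members that passed or are described by role. Cd3e and Cd4, for their levels, and the 5 genes most alike are named too. Alternatives were other scalings, filters and designs, DESeq2 1.42.0, and leaving out each replicate. Sequences are from GENCODE M21.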

Additional observations from a re-analysis of the deposited data

How the results depend on the processing

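The alternatives gave the same number of joining segments past the threshold, 5 of 5, in both kFRA comparisons, in 8 other settings and with each of 6 replicates left out. In the main fit these segments had passed the filter through their counts in DH-LMP2A and WT. For Igkc, kFRA against DH-LMP2A passed with library size alone (log2 fold change 1.37) and with the DESeq2 Wald test (1.59), and ranged from 1.35 to 1.90 with a replicate left out. Against WT it passed with library size alone (1.74), no filter (1.57), a mean of at least 5 CPM (1.55) and the DESeq2 Wald test (1.61), and ranged from 1.37 to 1.91 with a replicate left out. The cause of these changes was not tested. DH-LMP2A against WT had differences near 0 that changed sign. Igkc was at −0.0015 with a mean of at least 5 CPM and from −0.14 to 0.24 with a replicate left out. Igkj1 was at 0.0019 with DESeq2 size factors, 0.36 with library size alone, 0.0036 with scaling without immunoglobulin genes, 0.017 with no filter, 0.0077 with the replicate block and 0.0066 with the DESeq2 Wald test. With a replicate left out, Igkj1 ranged from −0.20 to 0.28, Igkj2 from −0.18 to 0.23, Igkj3 from −0.079 to 0.41 and Igkj5 from −0.020 to 0.60. The number of joining segments past the threshold ranged there from 0 to 1. The share of Igkj3 ranged from −1.15 to 0.34 percentage points and that of Igkj5 from −2.44 to 1.89. The variable-to-constant ratio of DH-LMP2A against WT turned from −0.078 to 0.46 when only the 38 Igkv genes with a count in all libraries were summed. This choice of genes rests on kFRA counts. With the same 38 genes the kFRA differences were −12.80 against DH-LMP2A and −12.34 against WT. The kappa share of kFRA against WT turned to −0.70 percentage points with Iglc1 alone. The replicate numbers name different mice, and the correlations of same-numbered libraries ranged from −0.211 to 0.196, so they were not treated as pairs. With the replicate block Igkc was at 1.52 and 1.54 in the kFRA comparisons, and no call of a member changed. Library size alone moved the median of all genes by −0.13, 0.21 and 0.34 in the 3 comparisons. The floor of 3 counts was the same for every library, and most joining counts in kFRA did not reach it.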
